A study of Mus musculus with 16 samples.

Results

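The 10 genes described here mark mesenchymal cells and were followed through the reprogramming of mouse fibroblasts: the transcription factors Snai1, Snai2, Zeb1, Zeb2, Twist1, Twist2 and Prrx1, and the markers Cdh2, Vim and Thy1. They were chosen by name, as all probes whose gene name in the array files equals 1 of the 10, which gave 10 of 28095 named genes and 23 of 41174 probes. The study made induced pluripotent stem (iPS) cells from mouse embryonic fibroblasts (MEFs) with reprogramming genes carried on a human artificial chromosome, a vector that stays separate from the host chromosomes and can be lost again. RNA of 16 cultures was labelled with Cy3 and hybridized to 16 Agilent whole mouse genome arrays of 1 colour. The MEFs (1 array) came from C57BL/6 embryos. The ES lines (2 arrays) were B6ES, of C57BL/6 background, and TT2, of C57BL/6 x CBA background. Clones 1-A3, 1-B, 1-C3 and 1-D6 (iHAC1-iPS, 4 arrays) carried a vector with 2 copies each of Klf4, c-Myc, Sox2 and Oct4, and clones 2-B1, 2-C6, 2-E and 2-N (iHAC2-iPS, 4 arrays) the same set with p53 knockdown and 2 further Oct4 copies. The 4 iHAC-free iPS lines (F-B1 and F-C5, with F-E4 and F-N7) were made with the second vector and no longer held it. Each was derived from the iHAC2-iPS clone whose letter it shares. All 12 were of C57BL/6 background, each array stands for 1 clone, and the factors were driven by the CAG promoter, which is active in most cell types. After vector transfer the fibroblasts were also treated with microRNA mimics, to raise the efficiency of reprogramming. By the paper, the colonies came from 1 transfer experiment with the first vector and 2 with the second. The iPS line 20D17 (1 array), made with retroviruses, was of C57BL/6 x DBA background. ES cells and vector-bearing clones were grown on feeder layers of growth-arrested MEFs from ICR mice. Whether feeder cells were removed before RNA was prepared is not given in the sources used here.

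A fibroblast that becomes an iPS cell passes through a mesenchymal-to-epithelial transition, in which loose spindle-shaped cells form junctions and pack into colonies. Snail, Zeb and Twist proteins are transcription factors of embryonic mesenchyme, and Snail and Zeb proteins repress E-cadherin and other junction genes by binding E-box motifs in their promoters. Prrx1 is a homeobox factor of limb and craniofacial mesenchyme, N-cadherin (Cdh2) is the cadherin of mesenchymal and neural cells, vimentin (Vim) is their intermediate filament, and Thy1 is a surface glycoprotein of fibroblasts, neurons and thymocytes.

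A level is the log2 of the background-subtracted spot signal minus the log2 of the 75th percentile of that array, so that 0 is as bright as the 75th percentile and 1 unit is a 2-fold change. Levels of different probes are not comparable, since each probe binds its target with its own strength. All 16 arrays entered 1 limma fit, and a gene is called here where the Benjamini-Hochberg adjusted p over all tested probes was under 0.05 and the difference at least 2-fold. A probe was tested if at least 1 array measured it well above background, which held for 20 of the 23, and all 10 genes had at least 1 of them. The other 3 (probe A_51_P262972 of Prrx1, A_52_P164578 of Cdh2 and A_52_P287532 of Vim) were not well above background on any array. Zeb2, Prrx1, Cdh2, Vim and Thy1 had more than 1 probe, and for these the brightest on average stands for the gene unless another is named. MEFs had a single array, so each comparison with them assumes that a MEF array would vary as arrays of the replicated groups do. Comparisons that share a group share its arrays and are not independent.

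The share of spots well above background was 54.2% to 65.8% per array, with no saturated spot. MEFs, iHAC1-iPS, ES cells and 20D17 lay on slides 1 and 2, and iHAC2-iPS and iHAC-free iPS cells on slides 3 and 4 of a second scan session, so between these sets the group and the session of scanning cannot be told apart. The labels were checked against marker genes. In MEFs all 8 fibroblast markers (Col1a1, Col1a2, Col3a1, Dcn, Lum, Postn, Fbln2 and Pdgfrb) and only 3 of 7 pluripotency markers were well above background, and in both ES lines all 7 were. In iHAC1-iPS clones Dppa3 was well above background on 1 of 4 arrays and Zfp42 and Esrrb on 2 of 4. In these clones 5 of the 7 markers were called lower than in ES cells, where 7.41% of all tested probes were. Pou5f1, the Oct4 gene that the vector also carries, was 6.83-fold higher (adjusted p = 0.00265). The 8 fibroblast markers were well above background in every ES and iPS array too. In bulk RNA, fewer cells of a type and less RNA per cell cannot be told apart.

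Of the 10 genes, 7 were called higher in MEFs than in ES cells, 4 differed between MEFs and iHAC1-iPS cells, and no gene was called between either iHAC2-iPS or iHAC-free iPS cells and ES cells. Against ES cells the MEF array was higher in 7 genes, where 13.5% of all tested probes were called higher. It was lower in none, where 5074 of 31412 probes were called lower. The median difference of the 10 genes was 2.14 against -0.20 over all probes. Against iHAC1-iPS cells it was higher in 3 genes (9.17% of all probes were called higher) and lower in 1 (9.3% were called lower), with a median of 0.82 against -0.20. Against iHAC2-iPS cells it was higher in 7 genes (14.7% of all probes) and lower in none (5589 of 31412 probes), with a median of 2.29 against -0.22. Against iHAC-free iPS cells it was higher in 7 genes (14.4% of all probes) and lower in 1 (16.6% of all probes), with a median of 1.96 against -0.16. In the fit of MEFs and ES cells alone, where the spread rests on the 2 ES arrays, 3 of the 7 calls (Zeb1, Zeb2 and Twist1) were made, and without B6ES 4 of the 7 (Snai2, Zeb1, Twist1 and Prrx1) were made. Against iHAC2-iPS cells Zeb1 and Vim lost their calls in the fit of those groups alone.

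**Figure D1:**
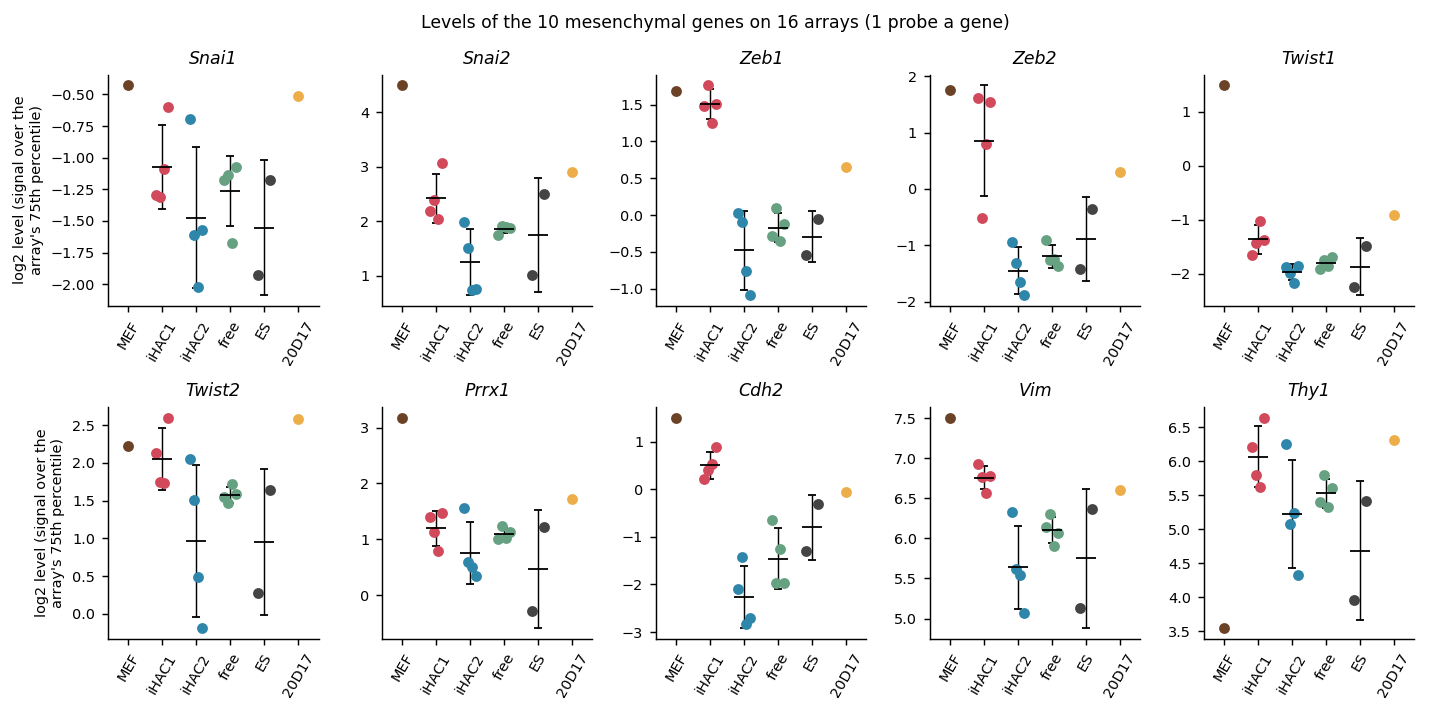
Levels of the 10 genes on 16 arrays, with 1 panel and 1 probe per gene. The y axis is the log2 level over the 75th percentile of the array and differs between panels, points are arrays, and bars are the mean and SD of groups of 2 or 4 arrays. The iHAC1-iPS points of Zeb1 sit between 1.26 and 1.77, beside the MEF array at 1.69 and above every other array, whereas those of Twist1 sit between -1.65 and -1.01, far below MEFs at 1.50, and the MEF array has the lowest Thy1 level of all.

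Zeb1, a zinc finger repressor of epithelial genes, stayed at the MEF level in iHAC1-iPS clones and was low in the other reprogrammed cells and in ES cells. Its level was 1.69 in MEFs and 1.49, 1.77, 1.26 and 1.52 in 1-A3, 1-B, 1-C3 and 1-D6. It was 0.03, -0.09, -0.75 and -1.09 in 2-B1, 2-C6, 2-E and 2-N, and -0.29, 0.09, -0.36 and -0.12 in the lines F-B1, F-C5, F-E4, F-N7. It was -0.54 in B6ES, -0.05 in TT2 and 0.65 in 20D17. The iHAC1-iPS clones enclosed the MEF value and did not overlap with any ES, iHAC2-iPS or iHAC-free iPS array, and 20D17 lay between the sets. The group means in descending order were 1.51 ± 0.208 (SD, n = 4) in iHAC1-iPS, -0.17 ± 0.199 (n = 4) in iHAC-free iPS, -0.29 ± 0.344 (n = 2) in ES and -0.48 ± 0.533 (n = 4) in iHAC2-iPS cells, and the last 3 overlapped.

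The Zeb1 difference of iHAC1-iPS from ES cells was 1.80 (3.48-fold, SE 0.296, adjusted p = 0.00179) and from iHAC2-iPS cells 1.98 (3.95-fold, SE 0.242, adjusted p = 1.99e-04). Both calls were made under every alternative processing run. On the slide that holds 1-D6 and both ES lines the difference was 1.81, as large as over all arrays. MEFs exceeded iHAC1-iPS clones by 0.18 (95% confidence interval -0.65 to 1.01, adjusted p = 0.775), an interval that includes a 2-fold difference. MEFs exceeded ES cells by 1.98 (3.95-fold, adjusted p = 0.00385).

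Zeb2, the paralogue of Zeb1, split the iHAC1-iPS clones. Its level was 1.75 in MEFs and 1.61, -0.52, 0.80 and 1.54 in 1-A3, 1-B, 1-C3 and 1-D6. It was -0.94, -1.31, -1.65 and -1.89 in the iHAC2-iPS clones (order 2-B1, 2-C6, 2-E, 2-N) and -0.90, -1.26, -1.25 and -1.38 in the iHAC-free lines (order F-B1, F-C5, F-E4, F-N7). It was -1.41 in B6ES, -0.36 in TT2 and 0.30 in 20D17. Clones 1-A3 and 1-D6 were close to MEFs, 1-C3 was lower, and 1-B lay below TT2, so the iHAC1-iPS and ES groups overlapped, while all iHAC1-iPS clones lay above all iHAC2-iPS and iHAC-free iPS arrays. The mean was 0.86 ± 0.988 (SD, n = 4) in iHAC1-iPS cells, the widest spread of Zeb2 among the groups of 4.

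Zeb2 was called higher in iHAC1-iPS than in iHAC2-iPS cells, by 2.30 (4.94-fold, SE 0.421, adjusted p = 0.00174), and higher than in ES cells, by 1.74 (3.35-fold, SE 0.516, adjusted p = 0.0317). The call against ES cells was lost without B6ES (difference 1.22, adjusted p = 0.297), without 1-A3 (1.49, adjusted p = 0.0745), without 1-D6 (1.52, adjusted p = 0.0728), with the fit limited to the compared groups (adjusted p = 0.126) and with the slide as a block (2.42, adjusted p = 0.0706). A further 3 Zeb2 probes followed the first across the 16 arrays, with Pearson's r of 0.965 (A_51_P121206), 0.962 (A_52_P526372) and 0.878 (A_52_P587928), as a description without a test. On A_51_P121206 the iHAC1-iPS levels were 0.66, -1.70, -0.62 and 0.13 in the same clone order, with 1-B again the lowest. The dim probe A_52_P526372 was not well above background on any iHAC2-iPS array and was higher, at least 3.11-fold, in iHAC1-iPS clones, where the dim side is taken at the lowest signal well above background on those arrays. A_52_P587928, which the files assign to another Zeb2 transcript, was at least 5.60-fold higher in MEFs than in ES cells by the same bound. For the mean of the iHAC1-iPS clones the bound was 2.18-fold over ES cells. That mean includes 1-B, which was not well above background (-6.33) and lay below TT2 (-5.85). The fifth probe, A_51_P106893, was well above background in MEFs alone.

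**Figure D2:**
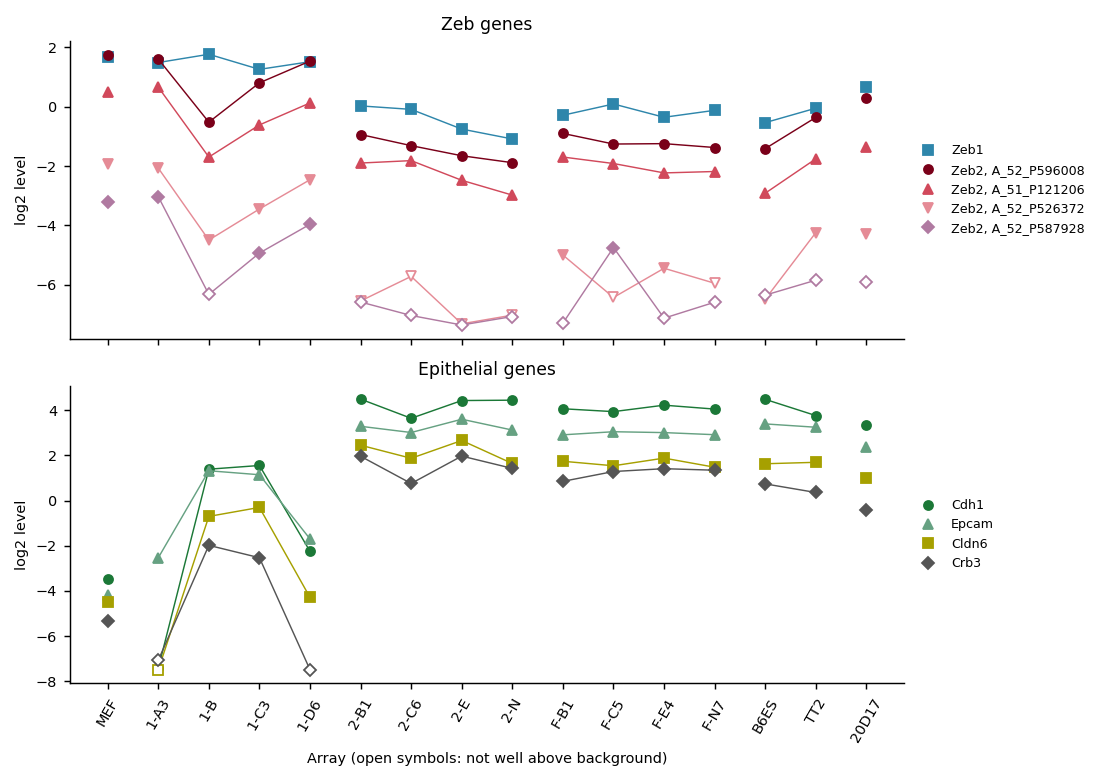
Log2 levels of Zeb1 and of 4 Zeb2 probes (top) and of 4 epithelial genes (bottom) on each of 16 arrays, with open symbols for values not well above background and lines that only join the arrays of a group. In clones 1-A3 and 1-D6 Zeb2 is at 1.61 and 1.54 and Cdh1 at -7.42 and -2.24, in 1-B and 1-C3 Zeb2 is at -0.52 and 0.80 and Cdh1 at 1.39 and 1.56, and Zeb1 is at or above 1.26 in all 4.

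Among the Snail factors, Snai2 was the one that differed between groups. Snai2 (Slug), a repressor expressed in neural crest and fibroblasts, had a level of 4.50 in MEFs and 2.19, 2.38, 2.04 and 3.06 in 1-A3, 1-B, 1-C3 and 1-D6. It was 1.98, 1.51, 0.74 and 0.76 in 2-B1, 2-C6, 2-E and 2-N, and 1.75, 1.92, 1.89 and 1.88 in the lines F-B1, F-C5, F-E4, F-N7. It was 1.01 in B6ES, 2.49 in TT2 and 2.91 in 20D17. MEFs stood above all other arrays, the iHAC1-iPS clones lay just above the iHAC2-iPS clones, and the ES lines lay on either side of the iHAC-free lines. MEFs exceeded ES cells by 2.74 (6.70-fold, adjusted p = 0.00512) and iHAC1-iPS clones by 2.08 (4.22-fold, adjusted p = 0.0185). The difference of iHAC1-iPS from iHAC2-iPS cells was 1.17 (2.25-fold, SE 0.353, adjusted p = 0.022), and the call was lost without 1-D6 (0.95, adjusted p = 0.0687), without 2-E (1.00, adjusted p = 0.0611) and without 2-N (1.01, adjusted p = 0.0602). Against ES cells the iHAC1-iPS difference was 0.67 (adjusted p = 0.302), and -0.07 without B6ES (adjusted p = 0.943).

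Snai1 (Snail), which represses Cdh1 during gastrulation, was called in no comparison. Its level was -0.43 in MEFs, -1.31 to -0.60 in iHAC1-iPS, -2.02 to -0.69 in iHAC2-iPS and -1.67 to -1.07 in iHAC-free iPS cells. It was -1.93 in B6ES, -1.17 in TT2 and -0.51 in 20D17. MEFs had the highest value, with 20D17 and 1-D6 next, and the other groups overlapped. The MEF difference from ES cells was 1.13 (95% confidence interval 0.05 to 2.20, adjusted p = 0.0961). Without 2-B1, the brightest iHAC2-iPS clone, Snai1 was called higher in MEFs than in iHAC2-iPS cells (difference 1.31, adjusted p = 0.0163).

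Twist1, a basic helix-loop-helix factor of neural crest and limb mesenchyme, was high in MEFs and low on every other array. Its level was 1.50 in MEFs and -1.65, -1.43, -1.01 and -1.37 in 1-A3, 1-B, 1-C3 and 1-D6. It was -1.88, -1.98, -2.17 and -1.85 in 2-B1, 2-C6, 2-E and 2-N, and -1.91, -1.74, -1.86 and -1.70 in the lines F-B1, F-C5, F-E4, F-N7. It was -2.24 in B6ES, -1.49 in TT2 and -0.91 in 20D17. Every ES and iPS array lay at least 2.41 below MEFs, and within those arrays the whole range was 1.33. MEFs exceeded ES cells by 3.36 (10.3-fold, SE 0.311, adjusted p = 2.51e-05), iHAC1-iPS cells by 2.86 (7.27-fold, adjusted p = 3.9e-05), iHAC2-iPS cells by 3.47 (11.1-fold, adjusted p = 8.37e-06) and iHAC-free iPS cells by 3.30 (9.86-fold, adjusted p = 1.14e-05). The iHAC1-iPS clones lay above all iHAC2-iPS clones by a mean of 0.61 (SE 0.180, adjusted p = 0.0202), which is under 2-fold and therefore not called.

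Twist2 (Dermo1), a related factor of dermal mesenchyme, was called in no comparison and did not follow Twist1. Its level was 2.22 in MEFs and 2.13, 1.75, 1.73 and 2.60 in 1-A3, 1-B, 1-C3 and 1-D6. It was 2.06, 1.51, 0.49 and -0.19 in 2-B1, 2-C6, 2-E and 2-N, and 1.47 to 1.72 in the iHAC-free lines. It was 0.27 in B6ES, 1.64 in TT2 and 2.58 in 20D17. Clone 1-D6 and 20D17 lay above MEFs, and the iHAC2-iPS clones spanned 2.24 units. The MEF difference from ES cells was 1.27 (95% confidence interval -0.39 to 2.92, adjusted p = 0.220) and that of iHAC1-iPS from iHAC2-iPS cells 1.08 (adjusted p = 0.0701). Without 2-B1 the last was called (1.45, adjusted p = 0.0189).

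Prrx1 was high in MEFs and lower in every reprogrammed group. Its level was 3.17 in MEFs and 1.40, 1.12, 0.79 and 1.47 in 1-A3, 1-B, 1-C3 and 1-D6. It was 1.57, 0.60, 0.51 and 0.34 in 2-B1, 2-C6, 2-E and 2-N, and 1.01, 1.24, 1.02 and 1.13 in the lines F-B1, F-C5, F-E4, F-N7. It was -0.28 in B6ES, 1.21 in TT2 and 1.72 in 20D17. MEFs stood apart, and the iPS groups overlapped with each other and with TT2. MEFs exceeded ES cells by 2.71 (6.52-fold, adjusted p = 0.00344), iHAC1-iPS cells by 1.98 (3.94-fold, adjusted p = 0.0154), iHAC2-iPS cells by 2.42 (5.34-fold, adjusted p = 0.00297) and iHAC-free iPS cells by 2.07 (4.21-fold, adjusted p = 0.00755). The difference of iHAC1-iPS from ES cells was 0.73 (adjusted p = 0.216). It depended on the ES line, with 1.47 and a call without TT2 (adjusted p = 0.0371) and -0.02 without B6ES (adjusted p = 0.983).

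The pattern of Prrx1 did not rest on 1 probe. A pair of further probes, which the files assign to another transcript of the gene than the first, lie on chromosome 1 (build mm9, minus strand), the first at chr1:165187974-165188033 and the second at chr1:165191982-165192041, and their levels followed the first probe with Pearson's r of 0.994 and 0.995 over 16 arrays. Both sequences are shown because the 3 probes, at different places in the gene, moved alike, with MEF levels of 2.70 and 2.44 against iHAC1-iPS means of 0.62 ± 0.335 and 0.31 ± 0.351 (SD, n = 4).
Prrx1 A_51_P209778: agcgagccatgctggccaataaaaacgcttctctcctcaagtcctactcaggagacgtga
Prrx1 A_52_P483713: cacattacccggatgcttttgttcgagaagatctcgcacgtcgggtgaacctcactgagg
A dim probe, A_52_P335587, assigned by the files to the same transcript as the first probe, was not well above background on any iHAC2-iPS array and was at least 8.12-fold higher in MEFs. Probe A_52_P480842, of a further transcript, was well above background in MEFs alone.

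Cdh2, the adhesion molecule whose gain accompanies the loss of E-cadherin in mesenchymal cells, separated iHAC1-iPS from iHAC2-iPS clones by the largest difference of the 10 genes. Its level was 1.50 in MEFs and 0.22, 0.40, 0.53 and 0.89 in 1-A3, 1-B, 1-C3 and 1-D6. It was -2.09, -1.43, -2.84 and -2.72 in 2-B1, 2-C6, 2-E and 2-N, and -0.64, -1.97, -1.26 and -1.96 in the lines F-B1, F-C5, F-E4, F-N7. It was -1.29 in B6ES, -0.32 in TT2 and -0.06 in 20D17. All iHAC1-iPS clones lay above all ES, iHAC2-iPS and iHAC-free iPS arrays and below MEFs, and all iHAC2-iPS clones lay below both ES lines. The iHAC1-iPS difference from iHAC2-iPS cells was 2.78 (6.86-fold, SE 0.374, adjusted p = 3.3e-04). From ES cells it was 1.31 (95% confidence interval 0.31 to 2.31, adjusted p = 0.0615), and it was called with normexp background correction (1.16, adjusted p = 0.0222), with the fit limited to the compared groups (adjusted p = 0.0451) and with only probes bright on all arrays (adjusted p = 0.0407), whereas without B6ES it was 0.82 (adjusted p = 0.440). On the slide of 1-D6 and both ES lines it was 1.69.

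The iHAC2-iPS clones were 1.47 lower in Cdh2 than ES cells (2.77-fold, adjusted p = 0.0566), which is not called, and without 2-C6 the difference of -1.75 was called (adjusted p = 0.018). MEFs exceeded iHAC2-iPS cells by 3.77 (13.7-fold, adjusted p = 5.07e-04) and ES cells by 2.30 (4.94-fold, adjusted p = 0.0166). The MEF difference from iHAC1-iPS cells was 0.99 (95% confidence interval -0.29 to 2.28, adjusted p = 0.252). Probe A_52_P322725, which the files assign to another Cdh2 transcript, was well above background only on 2-N (level -4.07), and its lower value in iHAC1-iPS than in iHAC2-iPS cells (-1.44, adjusted p = 0.0294) gives no fold, since the bound was under 1.

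Vim, the vimentin gene, was intermediate between MEFs and ES cells in iHAC1-iPS clones. Its level was 7.50 in MEFs and 6.92, 6.76, 6.57 and 6.77 in 1-A3, 1-B, 1-C3 and 1-D6. It was 6.32, 5.62, 5.54 and 5.07 in 2-B1, 2-C6, 2-E and 2-N, and 6.15, 6.30, 5.90 and 6.06 in the lines F-B1, F-C5, F-E4, F-N7. It was 5.14 in B6ES, 6.37 in TT2 and 6.60 in 20D17. MEFs were highest, all iHAC1-iPS clones lay above all iHAC2-iPS, iHAC-free iPS and ES arrays, and the latter 3 groups overlapped. The iHAC1-iPS difference from iHAC2-iPS cells was 1.12 (2.17-fold, SE 0.280, adjusted p = 0.00908), and without 2-N it was 0.93, under 2-fold. From ES cells it was 1.01 (95% confidence interval 0.26 to 1.75, adjusted p = 0.0554), and it was called without TT2 (1.62, adjusted p = 0.0175), with normexp correction (1.03, adjusted p = 0.0346) and with quantile normalization (1.15, adjusted p = 0.0483), whereas without B6ES it was 0.39 (adjusted p = 0.570). MEFs exceeded ES cells by 1.75 (3.37-fold, adjusted p = 0.0152), iHAC2-iPS cells by 1.86 (3.64-fold, adjusted p = 0.00578) and iHAC-free iPS cells by 1.40 (2.64-fold, adjusted p = 0.0255).

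Thy1, which is used to sort fibroblasts out of reprogramming cultures, ran the other way. Its level was 3.55 in MEFs and 6.21, 5.79, 5.63 and 6.64 in 1-A3, 1-B, 1-C3 and 1-D6. It was 6.25, 5.07, 5.24 and 4.33 in 2-B1, 2-C6, 2-E and 2-N, and 5.40, 5.80, 5.32 and 5.60 in the lines F-B1, F-C5, F-E4, F-N7. It was 3.96 in B6ES, 5.41 in TT2 and 6.31 in 20D17. MEFs had the lowest level of the 16 arrays. They were lower than iHAC1-iPS clones by 2.52 (5.74-fold, SE 0.631, adjusted p = 0.0131) and lower than iHAC-free lines by 1.98 (3.96-fold, adjusted p = 0.0261). The difference from iHAC2-iPS cells was -1.68 (adjusted p = 0.0511), and without 2-N it was -1.97 and called (adjusted p = 0.0191). That from ES cells was -1.14 (95% confidence interval -2.64 to 0.36, adjusted p = 0.223).

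A second Thy1 probe also had its lowest level in MEFs. Its 60 bases span 446 bases of the genome and so cross a splice junction, at chr9:43854991-43855436 (build mm9, plus strand). It is shown because it binds another stretch of the transcript than the first probe, which lies further along it.
Thy1 A_51_P420731: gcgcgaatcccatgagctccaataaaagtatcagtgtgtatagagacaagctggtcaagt
Its level was -1.43 in MEFs and 0.37, 0.32, 0.02 and 1.09 in 1-A3, 1-B, 1-C3 and 1-D6. It was 0.81, -0.21, -0.22 and -0.85 in 2-B1, 2-C6, 2-E and 2-N, and 0.25 to 0.67 in the iHAC-free lines. It was -1.04 in B6ES, 0.25 in TT2 and 0.86 in 20D17. MEFs were again the lowest of the 16 arrays, and r with the first probe was 0.959.

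Levels of Thy1 and several other genes were set beside the summed signal of the 8 fibroblast markers, each taken relative to the 75th percentile of its array. The sum was 336 in MEFs and 390, 233, 176 and 446 in 1-A3, 1-B, 1-C3 and 1-D6. It was 270, 141, 177 and 92.7 in 2-B1, 2-C6, 2-E and 2-N, and 187, 300, 148 and 220 in the lines F-B1, F-C5, F-E4, F-N7. It was 49.8 in B6ES, 135 in TT2 and 244 in 20D17. As linear signals are added, the brightest markers weigh most, such as Col1a1 and Col1a2 (log2 levels 7.48 and 7.24 in 1-D6). The dimmer Lum and Dcn were lower in 1-D6 (-0.22 and 2.56) than in 2-B1 (1.70 and 3.93). Postn and Pdgfrb were higher in 1-D6 than in 2-B1. The clones with the highest sums of their groups were 1-D6 and 2-B1. Both had the highest Thy1, Twist2, Snai1, Snai2 and Prrx1 levels of their groups. Clone 2-B1 was also the highest iHAC2-iPS clone in Zeb1, Zeb2 and Vim, but not in Twist1 or Cdh2. Clone 1-D6 was also the highest iHAC1-iPS clone in Cdh2, but not in Zeb1, Zeb2, Twist1 or Vim. Among the iHAC-free lines F-C5, with the highest sum, had the highest Thy1, Prrx1, Snai2, Zeb1 and Vim levels. It had the lowest Twist2 and Cdh2 levels, and its Snai1 level (-1.13) was below that of F-N7 (-1.07). B6ES was lower than TT2 in the sum and in all 10 genes, and 1-A3 and 1-D6, where Zeb2 was highest, had the highest sums of the iHAC1-iPS clones. MEFs, with a high sum and the lowest Thy1, did not follow. The part of fibroblast RNA in these differences was not tested. Zeb1 in iHAC1-iPS clones was at or above 1.26 over the whole range of sums from 176 to 446. In 2-B1, with a sum of 270, it was at 0.03, and in F-C5, with 300, at 0.09. Within the iHAC-free lines Zeb1 fell in the order of the sums, from F-C5 to F-E4 (-0.36). Among iHAC2-iPS clones 2-B1 had the highest Zeb1 level and sum and 2-N (-1.09) the lowest, while 2-E and 2-C6 ran the other way. The part of fibroblast RNA in the Zeb1 levels was not tested either.

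In iHAC1-iPS against ES cells, a comparison of vector-bearing clones with the pluripotent reference, all 10 genes had a positive difference and 2 of them, Zeb1 and Zeb2, were called higher, where 6.86% of all tested probes were called higher and 7.41% lower. Of the 10 genes, 6 had an unadjusted p under 0.05, for which the share of all probes was not worked out. The median difference was 1.05 against 0.01 over all probes. The size of these differences rested on B6ES: without it 8 of the 10 were positive, with Snai2 (-0.07) and Prrx1 (-0.02) below 0, the median was 0.40 and Zeb1 alone was called (1.56, adjusted p = 0.0355), and without TT2 all 10 were positive with a median of 1.70. In Zeb1, Twist2, Cdh2, Vim and Thy1 all 4 clones lay above both ES lines, but the share of all probes that did so was not worked out. Between the vector types, iHAC1-iPS against iHAC2-iPS, 5 genes (Snai2, Zeb1, Zeb2, Cdh2 and Vim) were called higher and none lower, where 8.64% of all probes were called higher and 11.3% lower. The median difference was 1.10 against -0.05, and all 10 differences were positive. The number called fell to 3 without 2-N and rose to 7 without 2-B1.

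**Figure D3:**
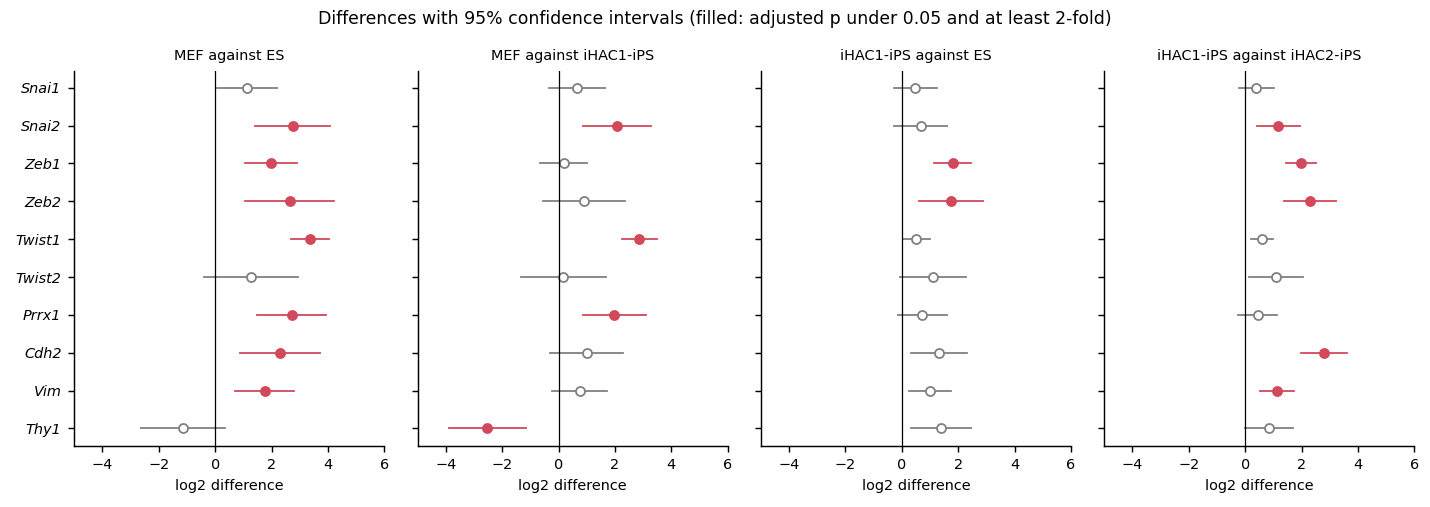
Log2 differences of the 10 genes (x axis) with 95% confidence intervals in 4 comparisons, 1 panel each. Filled points have an adjusted p under 0.05 and at least a 2-fold difference. In iHAC1-iPS against ES only Zeb1 (1.80) and Zeb2 (1.74) are filled, while in MEF against iHAC1-iPS these are open and Snai2 (2.08), Twist1 (2.86), Prrx1 (1.98) and Thy1 (-2.52) are filled.

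No gene was called in iHAC2-iPS against ES cells, where 6.73% of all probes were called in either direction, and 1 gene, Cdh2, had an unadjusted p under 0.05. The median difference was -0.11 against 0.05. Without B6ES the median was -0.58 and all 10 differences were negative, and without TT2 it was 0.37 and 8 were positive. Zeb1 differed by -0.18 (95% confidence interval -0.83 to 0.46) and Zeb2 by -0.56 (-1.68 to 0.56). None was called in iHAC-free iPS against ES cells either, where 0.366% of all probes were called, and no gene had an unadjusted p under 0.05. The median was 0.21 against 0.02 (-0.19 without B6ES and 0.76 without TT2), with intervals such as -0.52 to 0.77 for Zeb1 and -0.42 to 0.54 for Twist1. In iHAC2-iPS against iHAC-free iPS cells, limma called none of the 10, with 0.761% of all probes called and no gene at an unadjusted p under 0.05. All 10 differences were negative, from -0.81 (Cdh2, 95% confidence interval -1.63 to 0.00) to -0.17 (Twist1), with a median of -0.33 against 0.05. They were also negative on each of the slides that hold these groups, which only split the same arrays. On slide 4 those of Snai1 (-0.0067), Twist1 (-0.06) and Prrx1 (-0.12) were small. The share of all probes negative on both slides was not worked out. With 4 clones against 2 or 4, these intervals still include a 2-fold difference for most genes.

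The share of the MEF excess that remained can be placed on a scale where the mean of the ES lines is 0% and the MEF array is 100% of the log2 difference, for the 7 genes called between them. In iHAC1-iPS clones the mean position was 90.9% ± 10.5 (SD, n = 4) for Zeb1, 66.1% ± 37.4 for Zeb2, 57.4% ± 8.29 for Vim and 56.9% ± 12.4 for Cdh2. It was 26.9% ± 11.3 for Prrx1, 24.3% ± 16.5 for Snai2 and 14.9% ± 7.80 for Twist1. The Zeb1 clones (78.4% to 104%) did not overlap with those of Vim, Cdh2, Prrx1, Snai2 or Twist1, whereas Zeb2 ran from 13.8% in 1-B to 94.5% in 1-A3. In iHAC-free lines the means ran from -28.5% (Cdh2) to 23.4% (Prrx1), and in iHAC2-iPS clones from -63.8% (Cdh2) to 10.6% (Prrx1). The single 20D17 array lay between 28.3% (Twist1) and 48.5% (Vim) for all 7. The scale has no error for its MEF end, and its ES end is the mean of 2 lines that differ by up to 1.49 log2 units in these genes.

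**Figure D4:**
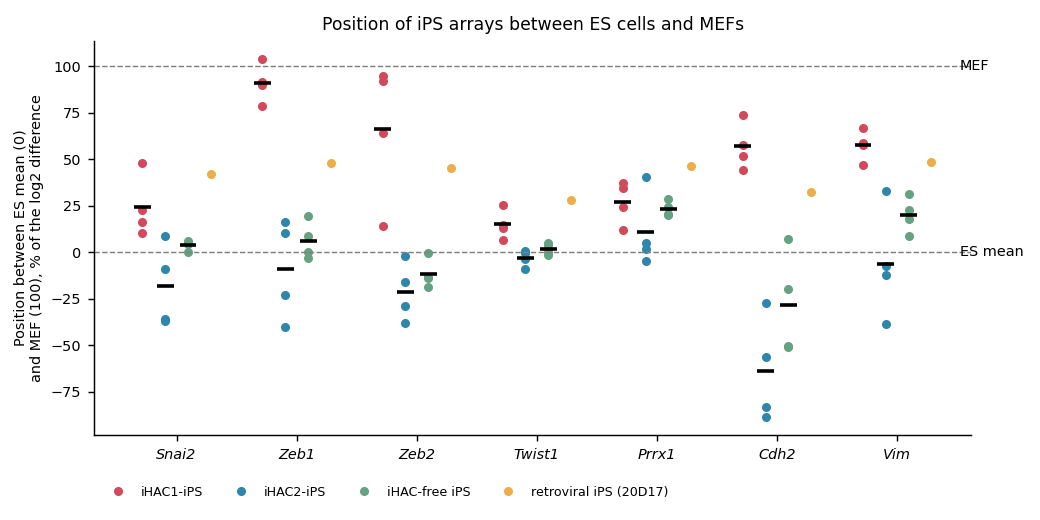
Position of each iPS array (y axis) between the ES mean (0) and the MEF array (100), in % of their log2 difference, for the 7 genes called between MEFs and ES cells. Points are arrays, bars are means of 4. The iHAC1-iPS points are nearest to MEFs for Zeb1 (mean 90.9%) and nearest to ES cells for Twist1 (mean 14.9%), and the iHAC-free points run from -50.9% (Cdh2) to 31.4% (Vim).

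The other genes of the mesenchymal programme were read from lists of regulators, surface and cytoskeleton genes and TGF-beta pathway genes. Of 16 further mesenchymal regulators, 11 were called higher in MEFs than in ES cells (median difference 2.86 against -0.20 over all probes), where 13.5% of all probes were called higher. Against iHAC1-iPS clones 10 were higher (9.17% of all probes) and 1 lower (9.3%) in MEFs. In iHAC1-iPS against ES cells 2 were higher (6.86% of all probes), Foxc1 (2.32, 4.98-fold, adjusted p = 0.00903), a forkhead factor of mesoderm, and Msx1 (1.86, 3.63-fold, adjusted p = 0.00501), a homeobox factor of neural crest. Meox2 was called lower (7.41% of all probes), but it was not well above background in either group and has no fold. In iHAC1-iPS against iHAC2-iPS cells 3 were higher (8.64% of all probes), Foxc1 (1.97), Msx1 (1.96) and Msx2 (1.43), and none lower. The regulator median was 0.38 against 0.01 over all probes in the first of these comparisons and 0.66 against -0.05 in the second.

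Of 15 surface and cytoskeleton genes, 7 were called higher in MEFs than in ES cells, where 13.5% of all probes were called higher. In the same comparison 1 was lower, where 5074 of 31412 probes were called lower. In iHAC1-iPS against ES cells 2 of the 15 were called in each direction, where 6.86% of all probes were called higher and 7.41% lower. The protease gene Fap (3.20, adjusted p = 0.0173) and the PDGF receptor gene Pdgfrb (1.90, adjusted p = 0.0189) were higher, and the cadherin gene Cdh11 (-1.12) and the endoglin gene Eng (-1.08) lower. Fap was well above background in TT2 (-3.38) but not in B6ES (-6.52), so its difference includes a reading at background. Against iHAC2-iPS cells, where the shares of all probes were 8.64% and 11.3%, Pdgfrb (2.08), the smooth muscle actin gene Acta2 (1.62) and Cd44 (1.38) were higher and Eng lower (-1.99, adjusted p = 5.81e-05). Of 12 TGF-beta pathway genes, 1 was called in each direction between iHAC1-iPS clones and ES lines, near the shares of all probes in that comparison. Smad3, a signal transducer, was higher in iHAC1-iPS clones than in ES lines (1.63, adjusted p = 5.93e-04) and Smad7, an inhibitor of the pathway, lower (-1.69, adjusted p = 0.00702). Against iHAC2-iPS cells the ligand genes Tgfb2 (1.81) and Tgfb3 (1.18) and Smad3 (1.27) were higher and Smad7 lower (-1.34). Without B6ES none of the regulators and none of the surface genes was called between iHAC1-iPS and ES cells, and with the slide as a block 1 surface gene and no regulator was. Pdgfrb is also 1 of the 8 fibroblast markers.

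Epithelial genes, the counterpart of the mesenchymal set, were low in iHAC1-iPS clones. Of 18, none was higher and 17 were called lower in iHAC1-iPS clones than in ES lines, where 7.41% of all probes were called lower, with a median of -4.28 against 0.01 over all probes. Against iHAC2-iPS cells, where 11.3% of all probes were called lower, 17 were lower, with a median of -4.12 against -0.05. Where an iHAC1-iPS array was not well above background, the fitted difference includes a reading at background. The genes named here were picked by the size of that difference, and their order is not a ranking. Against ES cells they were Cldn4 (-6.71), a claudin of tight junctions, Grhl2 (-5.91, adjusted p = 2.16e-04), a transcription factor of epithelia, and Cdh1 (-5.81, adjusted p = 0.0409), E-cadherin itself. Against iHAC2-iPS cells they were Rab25 (-6.35), a GTPase of epithelial membrane traffic, Crb3 (-6.30), a polarity protein, and Cldn4 (-5.96, adjusted p = 4.78e-05). Cldn4 and Rab25 were well above background on 1 of the 4 iHAC1-iPS arrays, Crb3 on 2, and Cdh1 and Grhl2 on 3. With the other arrays set at the lowest signal well above background on them, the difference from ES cells was -5.33 for Cldn4, -5.81 for Grhl2 and -5.28 for Cdh1, and that from iHAC2-iPS cells -6.17 for Rab25, -5.43 for Crb3 and -4.57 for Cldn4. Rab25 then differed from ES cells by -5.34, so the pick against ES cells rests in part on readings at background. The count against ES cells was 6 without B6ES, 10 without TT2, 11 with slides entered as blocks and 8 with the fit limited to the compared groups. Keeping only probes well above background on all arrays left 8 calls in each comparison.

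Within the iHAC1-iPS group Cdh1 and Epcam were higher in 1-B and 1-C3 than in 1-A3 and 1-D6, and so were Cldn6, Crb3, Ocln and Grhl2. Zeb2 was lower in 1-B and 1-C3 but did not form these pairs, since 1-C3 (0.80) lay nearer to 1-D6 (1.54) than to 1-B (-0.52). Rab25 did not part the pairs, and was well above background in 1-D6 alone (-5.50). Cdh1 had levels of -7.42 (not well above background), 1.39, 1.56 and -2.24 in 1-A3, 1-B, 1-C3 and 1-D6, against 3.65 to 4.50 in iHAC2-iPS clones, 4.49 in B6ES and 3.77 in TT2. Epcam, an epithelial adhesion gene, had -2.53, 1.32, 1.15 and -1.70 in the same order. Both were higher in 1-B and 1-C3, where Zeb2 was at -0.52 and 0.80, than in 1-A3 and 1-D6, where it was at 1.61 and 1.54, while Zeb1 (1.77 and 1.26 against 1.49 and 1.52) did not part these pairs. The same pairs differed in other ways. The pluripotency genes Esrrb and Zfp42 were well above background in 1-B and 1-C3 but not in 1-A3 and 1-D6. The fibroblast marker sum was 233 and 176 in 1-B and 1-C3, against 390 and 446 in 1-A3 and 1-D6. With 4 clones, and with clones picked out by their levels, no test was made.

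Because Snail and Zeb proteins bind the E-box CACCTG or its reverse complement CAGGTG, the 250 bases before the annotated starts were searched for both, which covers both strands. RefSeq promoters (build GRCm38.p6) were at hand for 11 of the 18 epithelial genes and 6 of the 10 mesenchymal genes. At least 1 box was found in 9 of the 11 (81.8%), in 1 of the 6 (16.7%, Snai1), and in 19.4% of 27025 genes of the table, where a gene counts if any of its promoters holds a box. Cldn3 and Dsp were the epithelial genes without a box, and both were also called lower in iHAC1-iPS than in iHAC2-iPS cells. The motifs are in capitals in 4 promoters, shown because 3 of them belong to epithelial genes that were lower in iHAC1-iPS clones and the fourth is the only promoter of the mesenchymal set with a box. They are Epcam (chr17:87635729-87635978, plus strand, boxes 187 and 19 bases before the start), Crb3 (chr17:57061951-57062200, plus strand, 118, 63 and 7 bases before), Rab25 (chr3:88548280-88548529, minus strand, 64 and 53 bases before) and Snai1 (chr2:167537945-167538194, plus strand, 126 bases before).
Epcam: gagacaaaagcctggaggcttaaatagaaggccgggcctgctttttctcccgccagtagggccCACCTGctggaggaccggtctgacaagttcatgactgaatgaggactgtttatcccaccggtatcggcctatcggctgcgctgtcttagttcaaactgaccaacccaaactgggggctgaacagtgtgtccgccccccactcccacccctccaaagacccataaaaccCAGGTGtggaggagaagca
Crb3: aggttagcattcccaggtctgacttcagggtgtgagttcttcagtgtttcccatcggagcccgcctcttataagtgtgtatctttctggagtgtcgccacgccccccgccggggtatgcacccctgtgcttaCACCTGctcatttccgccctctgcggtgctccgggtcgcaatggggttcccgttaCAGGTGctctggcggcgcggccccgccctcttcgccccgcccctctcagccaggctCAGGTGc
Rab25: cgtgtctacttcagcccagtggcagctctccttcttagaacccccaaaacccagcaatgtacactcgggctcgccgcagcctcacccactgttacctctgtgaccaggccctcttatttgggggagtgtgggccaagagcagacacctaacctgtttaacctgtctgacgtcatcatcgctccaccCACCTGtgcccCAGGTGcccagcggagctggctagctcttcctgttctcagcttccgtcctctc
Snai1: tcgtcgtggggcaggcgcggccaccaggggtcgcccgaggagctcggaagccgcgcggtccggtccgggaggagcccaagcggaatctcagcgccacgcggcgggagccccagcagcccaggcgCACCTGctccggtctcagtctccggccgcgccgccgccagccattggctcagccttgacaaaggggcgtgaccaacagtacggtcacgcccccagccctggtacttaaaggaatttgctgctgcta
The levels of these 3 epithelial genes in iHAC1-iPS against iHAC2-iPS cells differed by -3.70 for Epcam, which was well above background on all these arrays, and, with dim arrays set at the lowest signal well above background, by -5.43 for Crb3 and -6.17 for Rab25. A match in this window describes the letters only, and binding was not measured.

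Markers of other cell types were read in iHAC1-iPS against ES cells, where 6.86% of all probes were called higher and 7.41% lower. They were also read against iHAC2-iPS cells, where 8.64% were called higher and 11.3% lower. Of the 8 fibroblast markers, 4 were called higher (Col3a1 2.68, Col1a1 2.14, Pdgfrb 1.90 and Col1a2 1.69), and against iHAC2-iPS cells 2 (Pdgfrb 2.08 and Col1a1 1.20). Of 6 primitive endoderm markers tested, 1 was lower (Sox7, -2.42), and of 5 early mesoderm markers none was called. Of 5 neural markers 2 were higher, Pax6 (2.49, adjusted p = 0.00689) and Map2 (1.13). Of 5 blood and macrophage markers 1 was higher, the embryonic globin gene Hbb-bh1, which was not well above background in either ES line and in iHAC1-iPS clones at least 176-fold higher. Against iHAC2-iPS cells 1 primitive endoderm marker was higher (Lama1, 2.81), as were 2 neural markers (Pax6, 3.96, which was well above background on 1 of the 4 iHAC2-iPS arrays, and Tubb3, 1.66). Of the blood and macrophage markers 3 were higher (Hbb-bh1 1.51, Ptprc 1.43 and Csf1r 1.31) and 1, Cd68, was lower (-1.45). Their part in the levels of Cdh2 and the other genes was not tested.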

How the data were processed

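Total RNA of 16 cultures was labelled with Cy3 and hybridized by the authors to Agilent whole mouse genome arrays, 1 array each, and the spots were read with Feature Extraction (10.7.1.1 and 10.7.3.1, per the submitters' processing notes). The deposited scanner files hold intensity values on a linear scale, background-subtracted and not scaled between arrays. The authors normalized them with GeneSpring GX 11, and the deposited value table, log2 values centred for each probe, served as an alternative. Control spots and outlier flags were left out, spots of a probe were averaged, and log2 minus the 75th percentile of each array was taken. Scaling to a percentile makes each level relative to the other genes of its array. Probe positions are those of the files (mm9). Tests covered the 31415 of 41174 probes that at least 1 array measured well above background, with limma 3.58.1 (R 4.3.3; lmFit and eBayes, 6 groups, Benjamini-Hochberg; 31412 had a MEF value). The fit was tested on simulated data. Groups came from the sample labels. Each replicate is a separate clone or line, so p-values measure the spread between clones, and the number of arrays limits their precision. The array pair with the highest correlation had r = 0.988, so no array was counted as a duplicate.

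Named were all 10 members, from each gene list up to 3 called genes in each direction with the largest change, and always Cdh1 and Epcam. Called cell type markers were named after their values were seen. The members and lists were chosen with earlier results of these data known. Summed marker levels add linear levels. The iHAC-free lines derive from the iHAC2-iPS clones of the same letter, which the main fit does not pair. A fit of iHAC2-iPS against iHAC-free iPS cells with the letter as replicate block was therefore run. The deviations of same-lettered arrays from their group means correlated between -0.219 and 0.0800. Further alternatives were normexp correction (offset 50), quantile normalization, no filter, only probes well above background on all 16 arrays, only the compared groups, the slide as a block and leaving out each array. Promoters came from RefSeq (GRCm38.p6).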

Additional observations from a re-analysis of the deposited data

Results flagged for a closer look

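Among 60 groups of 4 arrays tested over the probes of the 10 genes, 1 held an array far from the other 3: on the Zeb2 probe A_51_P106893, clone 2-B1 lay above the other iHAC2-iPS clones by a gap of 0.841 of the whole range of the group. This rule picks out about 1 in 20 groups by chance. The probe was not well above background on any of these 4 arrays, so the value is a reading at background.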

How the results depend on the processing

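No difference that was called changed sign under any alternative. Of 1120 alternative values, 25 had the other sign, all of differences of at most 0.73 that were not called: 23 on leaving out 1 array, among them Snai2 and Prrx1 in iHAC1-iPS against ES cells without B6ES, and 2 under another processing (Twist1 in iHAC-free iPS against ES cells with normexp correction and Twist2 in iHAC2-iPS against ES cells with the slide as a random block). Over all results, 1078 values kept their side of the threshold, 24 passed it and 18 lost it. For MEFs against ES cells, 7 genes were called, 3 in the fit of those groups alone and 4 to 7 when each ES line was left out. For iHAC1-iPS against ES cells, 2 were called, 4 with normexp correction, 4 with quantile normalization, 5 with probes bright on all arrays, 1 with the slide as a block and 1 to 5 when arrays were left out. For iHAC2-iPS against ES cells, none was called, 1 (Cdh2) with no filter, with the strict filter and with the slide as a random block, and 0 to 1 when arrays were left out. For iHAC1-iPS against iHAC2-iPS, 5 were called, and 3 to 7 when arrays were left out. The counts of the other comparisons stayed within 1.5 times. The replicate block by the shared clone letter left 0 genes called in iHAC2-iPS against iHAC-free iPS cells. No other comparison was fitted with this block. The cause of the changes in the counts between settings was not tested. The median of all probes in MEFs against ES cells was -0.20, -0.33 with normexp correction and -0.11 with quantile normalization. Signal over background limits the dim Zeb2, Prrx1 and Cdh2 probes to bounds.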
